A study of Homo sapiens with 6 samples.

Results

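The proteasome genes examined were the protein-coding GENCODE symbols that begin with PSMA, PSMB, PSMC, PSMD, PSME, PSMF or PSMG followed by a number. The rule gave 49 genes, of which 48 were listed in at least 1 library and 46 were tested, among 12756 genes of the series that passed the limit of a mean of 0.5 FPKM over the 6 libraries. PSMA8, the alpha subunit of germ cells, was listed in no library, and PSMB9 and PSMB11 stayed under the limit. PSMC3IP also carries a symbol that the rule takes, but it encodes a meiotic recombination factor and not a proteasome subunit. RNA-Seq of SW480, an established line of human colorectal cancer cells, was performed to ask what knockdown of PCYT2 changes. PCYT2 is a rate-limiting enzyme of phosphatidylethanolamine synthesis. The cells were infected with lentiviral pLKO.1-TRC vectors and selected with puromycin as infected populations. The control hairpin (shNT) targets no gene, and the hairpins shPcyt2-1 and shPcyt2-2 target PCYT2, with 2 libraries for each of the 3. Nothing in the labels says that the 2 libraries of a group came from separate cultures, so p-values measure the spread between libraries, which may be technical. The values were read as FPKM (fragments per kilobase, scaled to the size of the library), which allows levels of different genes to be compared, and summed to between 396467 and 402612 in each library. Between 18806 and 19209 identifiers were listed in each library. The number of reads is unknown.

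The proteasome degrades proteins that carry a ubiquitin chain. Its 20S core is a barrel of stacked alpha and beta rings with the proteolytic sites inside, and its 19S regulatory particle recognizes the substrate, removes the ubiquitin and threads the chain into the core through a ring of ATPases. Interferon exchanges the catalytic beta subunits for those of the immunoproteasome and adds the 11S activator PSME1 and PSME2, while dedicated chaperones build the rings. In most cells the transcription factor NFE2L1 raises the constitutive genes together when proteasome activity falls short.

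PCYT2 itself was at 11.6 and 13.8 FPKM with shNT, 7.11 and 7.36 FPKM with shPcyt2-1, and 6.71 and 6.18 FPKM with shPcyt2-2. Its level was lower in each of the 4 knockdown libraries than in either control library. Its log2 fold change, here as elsewhere on the log2(FPKM + 1) scale, was -0.73 (standard error 0.10, limma adjusted p = 0.00205) for shPcyt2-1 and -0.88 (standard error 0.10, limma adjusted p = 0.00261) for shPcyt2-2. The cells carried the markers of their label. KRT8, the most abundant of 9 epithelial markers, was at 3602 and 3861 FPKM with shNT, 3540.2 and 3649 FPKM with shPcyt2-1, and 2734 and 2874 FPKM with shPcyt2-2. The epithelial markers summed to 8213 and 8771 FPKM with shNT, 8434 and 8527 FPKM with shPcyt2-1, and 6260.2 and 6556 FPKM with shPcyt2-2. With shPcyt2-2 the keratins KRT8, KRT18 and KRT19 fell by 0.41, 0.45 and 0.44 on the log2 scale (limma adjusted p = 0.00483, 0.00319 and 0.00546), and these keratins make up most of the sum. EPCAM, CDH1, VIL1, CDX1 and LGR5 were at 0.11, 0.19, 0.14, 0.28 and 0.22 with shPcyt2-2 and did not pass the test, and the median of the 9 markers was 0.11. The intestinal factor CDX2 fell with shPcyt2-1 (log2 fold change -0.65 (adjusted p = 0.00138 by limma)). Of 8 leukocyte markers, PTPRC was listed in no library, CD68 was the most abundant, no tested marker was called, and the sum ranged from 27.4 to 32.9 FPKM. Of 6 fibroblast markers, COL3A1 was listed in no library, LUM, the most abundant with shPcyt2-1, rose with that hairpin (log2 fold change 0.81 (adjusted p = 0.00192 by limma)), and the sum ranged from 2.25 to 4.10 FPKM. The 3 endothelial markers summed to less than 1 FPKM in every library. The part of these markers in the proteasome results was not tested, and in bulk RNA a change in the share of cells cannot be told apart from a change per cell.

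Constitutive subunits were abundant in the control cells. The median shNT level over the tested genes of the series was 6.89 FPKM, and the median subunit stood at 73.9 FPKM in the alpha ring, 99.7 FPKM in the beta ring, 46.2 FPKM among the 19S ATPases and 45.5 FPKM in the 19S lid. PSMA7 (276 FPKM) and PSMB4 (175 FPKM) had the highest shNT means in their rings, above 98.7% and 97.7% of the tested genes. Although each ring holds its subunits in equal number, the shNT levels within the alpha ring spanned 15.8-fold, from PSMA5 (17.4 FPKM) to PSMA7. The 6 ATPases spanned 3.62-fold, from PSMC6 (19.5 FPKM) to PSMC3 (70.5 FPKM). Assembly factors were lower, with a median of 23.8 FPKM. The genes lie scattered over the genome, with 8 on chromosome 14 and 8 on chromosome 17 as the most on any chromosome.

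The hairpins gave different pictures. With shPcyt2-1, 22 of the 46 tested genes were higher and 1 was lower than with shNT, that is 50% called, against 26.7% of all tested genes (16.5% higher and 10.1% lower). Their median log2 fold change was 0.26, and that of all tested genes was 0.067. With median-ratio scaling these medians were 0.185 and 0.000255, and with GC content and length regressed out of each library 0.133 and 0.0108. With shPcyt2-2, 2 genes were higher and 5 were lower, that is 15.2%, against 12.4% of all tested genes (7.69% higher and 4.74% lower), with a median of 0.063 beside 0.044. These medians were 0.0091 and -0.00036 with median-ratio scaling, and -0.015 and -0.0023 with GC content and length regressed out. Compared directly, 18 genes were lower and 1 was higher with shPcyt2-2 than with shPcyt2-1, that is 41.3% against 27.1% of all tested genes (14.2% lower and 12.9% higher), with a median of -0.14 beside -0.023. PSMD10 and PSMG2 were the genes higher with shPcyt2-2, and PSMC3, PSMC4, PSMC5, PSMG3 and PSMG4 were lower. Both comparisons with shNT use the same 2 control libraries, so their values are given side by side. When the 4 knockdown libraries were taken as 1 group, limma called 0 of the 46 genes (16 had an unadjusted p under 0.05, beside 16.7% of all tested genes), as it called 0.00784% of all tested genes. The mean of both hairpins in the fit with 3 groups gave 17 calls, 15 higher and 2 lower, beside 10.9% higher and 5.85% lower over all tested genes.

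Scaling changed the split. With median-ratio scaling, 14 proteasome genes were higher and 2 lower with shPcyt2-1 (11.1% higher and 13.8% lower over all tested genes), and 1 was higher and 7 were lower with shPcyt2-2 (5.98% higher and 6.89% lower). With GC content and length regressed out, the counts were 14 higher and 3 lower with shPcyt2-1 (14.2% and 13.3%), and 4 higher and 7 lower with shPcyt2-2 (7.54% and 6.76%). Leaving out a library lowered the count for shPcyt2-1 to 9 without its replicate 1 (8.99% of all tested genes were called in the same fit) and 13 without its replicate 2 (14.3%). For shPcyt2-2 the count was 0 without its replicate 1 (0.98% of all tested genes), 3 without its replicate 2 (4.41%), 3 without shNT replicate 2 (3.16%) and 16 without shNT replicate 1 (14.8%). The calls over all genes thus fell in number in the same fits, except the last. For the direct comparison the count was 8 without replicate 1 (13%) and 10 without replicate 2 (16.1%) of shPcyt2-1, and 12 (18.1%) and 8 (14.8%) without replicate 1 and 2 of shPcyt2-2. Of the genes named below, PSMB4, PSME4, PSMC1, PSMC3 and PSMG1 lost their call with shPcyt2-1 under median-ratio scaling, and PSMG2 its call with shPcyt2-2. PSMB4, PSME4, PSMC1, PSMD12, PSMD14 and PSMG1 lost their call with shPcyt2-1 when GC content and length were regressed out.

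**Figure D1:**
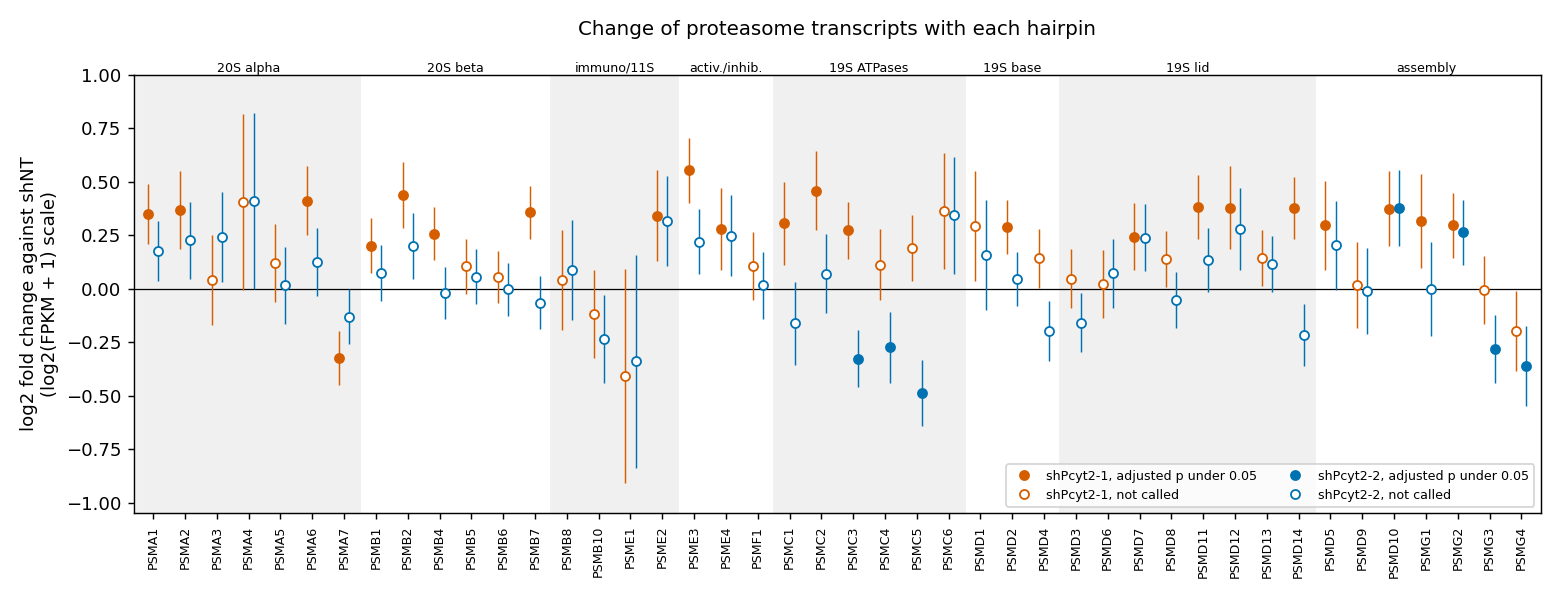
Log2 fold change against shNT (log2(FPKM + 1) scale) of the tested proteasome genes with each hairpin, with 95% limma intervals and filled points where the adjusted p is under 0.05. PSMC3IP and PSMB3, whose interval is far wider, are left out. Filled orange points (shPcyt2-1) lie above 0 except for PSMA7, and the filled blue points (shPcyt2-2) of the 19S ATPases lie below 0.

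In the alpha ring, which forms the gate of the core, 3 of 7 tested genes rose and 1 fell with shPcyt2-1, and 0 changed with shPcyt2-2 (median log2 fold change 0.35 and 0.18). With GC content and length regressed out the counts were the same, but the medians were 0.17 and 0.035. Over all tested genes 14.2% were higher and 13.3% lower with shPcyt2-1 in that fit. PSMA6 was at 77.9 and 69.95 FPKM with shNT, 101 and 95.7 FPKM with shPcyt2-1, and 82.6 and 78.6 FPKM with shPcyt2-2. Both shPcyt2-1 libraries were the highest, and the shPcyt2-2 libraries lay just above shNT. The log2 fold change was 0.41 (standard error 0.07, limma adjusted p = 0.00468) with shPcyt2-1 and 0.13 (adjusted p = 0.261 by limma) with shPcyt2-2, and the difference between hairpins (shPcyt2-2 minus shPcyt2-1, as in every such value) was -0.29 (adjusted p = 0.017 by limma). This difference lost its call without shPcyt2-1 replicate 1 (-0.24) and without replicate 1 or 2 of shPcyt2-2 (-0.32 and -0.25). PSMA2 was at 98.8 and 84.1 FPKM with shNT, 121 and 115 FPKM with shPcyt2-1, and 110.2 and 103 FPKM with shPcyt2-2. PSMA1 was at 121 and 112 FPKM with shNT, 151 and 147 FPKM with shPcyt2-1, and 135 and 129 FPKM with shPcyt2-2. In both genes the groups did not overlap and shPcyt2-2 lay between shNT and shPcyt2-1. PSMA2 rose by 0.37 (adjusted p = 0.0118 by limma) and PSMA1 by 0.35 (adjusted p = 0.00536 by limma) with shPcyt2-1. The lowest values over all alternatives with shPcyt2-1 were 0.24 for PSMA6, 0.17 for PSMA2 and 0.18 for PSMA1. PSMA7, the most abundant subunit, went the other way (it falls outside the rule for named genes and was chosen after its values were seen). It was at 281 and 271 FPKM with shNT, 222 and 219 FPKM with shPcyt2-1, and 260.0 and 244 FPKM with shPcyt2-2. Every knockdown library lay below shNT, those of shPcyt2-1 lowest. It fell with shPcyt2-1, with a log2 fold change of -0.32 (standard error 0.06, limma adjusted p = 0.00477), and was higher with shPcyt2-2 than with shPcyt2-1, by 0.19 (adjusted p = 0.0319 by limma). The calls for PSMA6, PSMA1 and PSMA7 with shPcyt2-1 held in every fit with 1 library left out, and PSMA2 lost its call without shPcyt2-1 replicate 1 (limma adjusted p = 0.0653). Exons of other genes cover 34.6% of the exon bases of PSMA2, 24.7% of those of PSMA1 and 14.1% of those of PSMA6. Whether counting used strand is not stated, so these values are uncertain.

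In the beta ring 4 of 7 genes rose with shPcyt2-1 (median 0.26), beside 16.5% higher over all tested genes. With shPcyt2-2, 0 were called (median 0.057), beside 12.4% of all tested genes. With median-ratio scaling 2 rose with shPcyt2-1 (median 0.18), and with GC content and length regressed out 2 did (median 0.16). Over all tested genes 11.1% and 14.2% were higher in these fits. The 3 catalytic subunits did not move together. PSMB7, the trypsin-like subunit (ENSG00000136930, GRCh38 chromosome 9, 124353466 to 124415444, minus strand), was at 96.4 and 95.05 FPKM with shNT, 123 and 122 FPKM with shPcyt2-1, and 91.4 and 91.4 FPKM with shPcyt2-2. Only the shPcyt2-1 libraries stood out, and those of shPcyt2-2 lay slightly below shNT. PSMB7 rose by 0.36 (standard error 0.05, limma adjusted p = 0.00306) with shPcyt2-1, and its change with shPcyt2-2 was -0.07 (adjusted p = 0.442 by limma). The hairpins differed by -0.42 (standard error 0.05, limma adjusted p = 0.000899). PSMB5, the chymotrypsin-like subunit and main target of bortezomib, was at 97.8 and 101 FPKM with shNT, 109 and 105 FPKM with shPcyt2-1, and 102 and 105 FPKM with shPcyt2-2. PSMB6, the caspase-like subunit, was at 101 and 101 FPKM with shNT, 105 and 105 FPKM with shPcyt2-1, and 102 and 100.4 FPKM with shPcyt2-2. Neither passed the test with either hairpin. The 95% limma interval of the log2 fold change was -0.03 to 0.23 with shPcyt2-1 and -0.07 to 0.19 with shPcyt2-2 for PSMB5, and -0.07 to 0.18 and -0.13 to 0.12 for PSMB6.

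Among the noncatalytic beta subunits, PSMB2 was at 23.6 and 22.9 FPKM with shNT, 32.3 and 31.3 FPKM with shPcyt2-1, and 27.5 and 26.2 FPKM with shPcyt2-2. PSMB4 was at 172 and 179 FPKM with shNT, 213 and 207 FPKM with shPcyt2-1, and 171 and 175 FPKM with shPcyt2-2. In PSMB2 the shPcyt2-2 libraries lay between the other groups, and in PSMB4 they overlapped shNT. PSMB2 rose by 0.44 (standard error 0.07, limma adjusted p = 0.00346) and PSMB4 by 0.26 (standard error 0.05, limma adjusted p = 0.0105) with shPcyt2-1. PSMB2 and PSMB7 held their calls with shPcyt2-1 in every fit with 1 library left out, while PSMB4 lost its call without either shPcyt2-1 library (limma adjusted p = 0.107 without replicate 1 and 0.0502 without replicate 2). Its value was 0.18 (adjusted p = 0.098 by limma) with median-ratio scaling and 0.16 (adjusted p = 0.0628 by limma) with GC content and length regressed out. PSMB3 could not be read. It was at 0.113 and 19.97 FPKM with shNT, 65.5 and 27.8 FPKM with shPcyt2-1, and 32.8 and 11.5 FPKM with shPcyt2-2. The libraries of every group differed by more than 2-fold, and shNT replicate 1 was near 0. Its log2 fold change was 3.18 (standard error 1.09, limma adjusted p = 0.0583) with shPcyt2-1 and 2.09 (standard error 1.09, limma adjusted p = 0.223) with shPcyt2-2, and without shNT replicate 1 these became 1.06 and -0.0280. PSMB3 shares its values with 1 other identifier, so reads could have been split between copies of the locus.

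Activators and the inhibitor that dock on the core gave 2 calls of 3, both higher, with shPcyt2-1 and 0 with shPcyt2-2 (median 0.28 and 0.22). With median-ratio scaling 1 was higher with shPcyt2-1 and 0 with shPcyt2-2. With GC content and length regressed out 1 was higher with each hairpin, and the medians were 0.088 and 0.079. Over all tested genes 16.5% were higher with shPcyt2-1 and 7.69% with shPcyt2-2. These shares were 11.1% and 5.98% with median-ratio scaling, and 14.2% and 7.54% with GC content and length regressed out. PSME3, the nuclear 11S activator, was at 38.7 and 38.7 FPKM with shNT, 58.5 and 56.1 FPKM with shPcyt2-1, and 47.2 and 43.3 FPKM with shPcyt2-2. The groups were separate, with shPcyt2-1 highest and shPcyt2-2 in the middle. It rose by 0.55 (standard error 0.07, limma adjusted p = 0.00131) with shPcyt2-1, the largest increase among the called proteasome genes, and held this call in every fit with 1 library left out. With shPcyt2-2 the value was 0.22 (adjusted p = 0.0636 by limma), and the hairpins differed by -0.33 (adjusted p = 0.00738 by limma). This difference lost its call without shPcyt2-1 replicate 1 (-0.30) and without shPcyt2-2 replicate 2 (-0.27). PSME4, the activator PA200, was at 11.9 and 10.5 FPKM with shNT, 13.8 and 13.9 FPKM with shPcyt2-1, and 13.5 and 13.5 FPKM with shPcyt2-2. All knockdown libraries exceeded shNT. Only shPcyt2-1 passed the test, at 0.28 (adjusted p = 0.0387 by limma) against 0.25 (adjusted p = 0.0844 by limma), and that call was lost without shNT replicate 2 and without any 1 of the 4 knockdown libraries (limma adjusted p up to 0.173).

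In the interferon-inducible group PSMB8 and PSMB9 were nearly silent, while PSMB10, PSME1 and PSME2 were not. The group holds the catalytic subunits PSMB8, PSMB9 and PSMB10, the thymic subunit PSMB11 and the activator subunits PSME1 and PSME2. Their promoters are shown because 4 of them carry the same letters. Of 43 member genes with a RefSeq promoter (GRCh38.p14, 250 bases before to 50 after the start), 7 hold GAAANNGAAA, a core of the interferon-stimulated response element, on either strand, that is 16.3%, against 4.38% of all gene symbols with a promoter. The match is marked in capitals. In all 4 it reads GAAAGCGAAA on one strand, a string chosen after the matches were seen, which 0.125% of all symbols hold. The assembly factor gene PSMG4, outside the inducible group, holds it too, so that 5 of the 43 members (11.6%) do. A match is a description of the sequence only. It begins 4, 21 and 28 bases before the RefSeq start of PSMB8, PSMB10 and PSME2 and 5 bases after that of PSME1, and these starts lie 656, 237, 960 and 36 bases inside the GENCODE genes of PSMB8, PSMB10, PSME2 and PSME1. PSMB8 has 2 windows, of which 1 holds the match. PSMB8 (chr6:32843998-32844297, minus strand), PSMB10 (chr16:67936801-67937100, minus strand), PSME1 (chr14:24135944-24136243, plus strand) and PSME2 (chr14:24146561-24146860, minus strand) read:
PSMB8: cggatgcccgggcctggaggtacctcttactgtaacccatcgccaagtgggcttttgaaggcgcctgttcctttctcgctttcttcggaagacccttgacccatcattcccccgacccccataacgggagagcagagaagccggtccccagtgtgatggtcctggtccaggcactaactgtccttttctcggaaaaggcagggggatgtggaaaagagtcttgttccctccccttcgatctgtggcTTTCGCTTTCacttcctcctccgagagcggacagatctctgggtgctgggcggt
PSMB10: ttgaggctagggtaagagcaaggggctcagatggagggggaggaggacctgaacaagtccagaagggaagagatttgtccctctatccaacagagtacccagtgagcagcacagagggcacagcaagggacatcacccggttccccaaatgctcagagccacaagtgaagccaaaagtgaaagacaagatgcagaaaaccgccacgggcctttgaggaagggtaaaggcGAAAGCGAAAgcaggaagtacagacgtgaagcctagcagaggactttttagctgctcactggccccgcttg
PSME1: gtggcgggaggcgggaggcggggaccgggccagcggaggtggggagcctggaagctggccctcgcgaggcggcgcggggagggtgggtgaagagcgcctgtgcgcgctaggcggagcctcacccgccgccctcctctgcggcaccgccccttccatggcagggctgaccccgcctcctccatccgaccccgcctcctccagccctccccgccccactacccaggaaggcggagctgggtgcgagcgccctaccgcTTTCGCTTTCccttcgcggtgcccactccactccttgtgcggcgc
PSME2: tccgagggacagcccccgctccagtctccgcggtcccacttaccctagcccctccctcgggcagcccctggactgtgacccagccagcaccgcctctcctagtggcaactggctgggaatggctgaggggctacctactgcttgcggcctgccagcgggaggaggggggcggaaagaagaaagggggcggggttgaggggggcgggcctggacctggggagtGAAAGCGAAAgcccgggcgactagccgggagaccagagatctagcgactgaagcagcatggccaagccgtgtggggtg

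PSMB8, which takes the place of PSMB5, was at 0.666 and 0.753 FPKM with shNT, 0.775 and 0.739 FPKM with shPcyt2-1, and 0.810 and 0.819 FPKM with shPcyt2-2. PSMB9, which takes the place of PSMB6, was at 0.359 and 0.485 FPKM with shNT, 0 and 0.350 FPKM with shPcyt2-1, and 0.499 and 0.291 FPKM with shPcyt2-2. Both stayed under 1 FPKM in every library, PSMB8 above only 4.75% of the tested genes. PSMB8 made up 0.677% and 0.736% with shNT, 0.706% and 0.696% with shPcyt2-1, and 0.787% and 0.772% with shPcyt2-2 of the sum of PSMB8 and PSMB5. PSMB8 passed the test with neither hairpin, with values of 0.04 (adjusted p = 0.802 by limma) and 0.09 (adjusted p = 0.608 by limma). PSMB10, which takes the place of PSMB7, was different and stood at 19.7 and 17.9 FPKM with shNT, 16.2 and 18.3 FPKM with shPcyt2-1, and 16.5 and 15.1 FPKM with shPcyt2-2. The shPcyt2-1 libraries overlapped shNT, and those of shPcyt2-2 lay below it. Its log2 fold change was -0.12 (adjusted p = 0.352 by limma) with shPcyt2-1 and -0.24 (adjusted p = 0.114 by limma) with shPcyt2-2. PSMB10 made up 16.9% and 15.9% with shNT, 11.6% and 13.02% with shPcyt2-1, and 15.3% and 14.2% with shPcyt2-2 of the sum of PSMB10 and PSMB7. This share was lowest in the shPcyt2-1 libraries, in which PSMB7 was highest. PSMB8 and PSMB9 share their values with 7 other identifiers each, and other genes cover 20.6% of the exon bases of PSMB8 and 34.8% of those of PSMB10, so these levels are uncertain.

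Of the inducible activator, PSME1 was at 81.6 and 87.2 FPKM with shNT, 68.7 and 58.4 FPKM with shPcyt2-1, and 48.8 and 90.4 FPKM with shPcyt2-2. PSME2, its partner in the same ring, was at 37.4 and 39.7 FPKM with shNT, 51.5 and 46.8 FPKM with shPcyt2-1, and 52.96 and 43.98 FPKM with shPcyt2-2. All 4 knockdown libraries exceeded shNT for PSME2, whereas for PSME1 the 2 libraries of shPcyt2-2 lay on either side of every other library. PSME2 rose by 0.34 (standard error 0.09, limma adjusted p = 0.0274) with shPcyt2-1 and was at 0.32 (adjusted p = 0.0563 by limma) with shPcyt2-2. PSME1 did not pass the test, with -0.41 (standard error 0.22, limma adjusted p = 0.196) and -0.34 (standard error 0.22, limma adjusted p = 0.323). The call of PSME2 was lost without shNT replicate 1, without shNT replicate 2 and without shPcyt2-1 replicate 1 (limma adjusted p up to 0.157). Both share their values with 1 other identifier. Of 12 genes of the class I presentation pathway that works with the immunoproteasome, 8 were tested, 1 rose with each hairpin and 0 fell (12.5%, beside 26.7% of all tested genes called with shPcyt2-1 and 12.4% with shPcyt2-2). With median-ratio scaling, and with GC content and length regressed out, 0 were called with shPcyt2-1 and 1 was higher with shPcyt2-2. The gene called with shPcyt2-1 was not B2M. B2M, the light chain of class I molecules, was at 16.99 and 25.3 FPKM with shNT, 28.5 and 25.7 FPKM with shPcyt2-1, and 40.9 and 38.8 FPKM with shPcyt2-2. The shPcyt2-2 libraries were the highest and shNT the lowest. B2M too shares its values with 1 other identifier, so its level is uncertain. B2M rose by 0.91 (standard error 0.15, limma adjusted p = 0.00901) with shPcyt2-2 and was at 0.37 (adjusted p = 0.0966 by limma) with shPcyt2-1, and the call with shPcyt2-2 was lost without either library of that hairpin (limma adjusted p up to 0.0943).

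The 19S ATPases, which unfold the substrate, set the hairpins apart most. Of the 6 genes, 3 rose and 0 fell with shPcyt2-1, 0 rose and 3 fell with shPcyt2-2, and 5 were lower with shPcyt2-2 than with shPcyt2-1. The median log2 fold changes were 0.29, -0.22 and -0.43. Over all tested genes 16.5% were higher with shPcyt2-1, 4.74% lower with shPcyt2-2 and 14.2% lower in the direct comparison. With median-ratio scaling 1 rose with shPcyt2-1, with GC content and length regressed out 2 did, and the counts of 3 lower and 5 lower stayed as they were in both, beside 6.89% and 13.1% lower over all tested genes with median-ratio scaling and 6.76% and 18.9% with GC content and length regressed out. PSMC1 was then at 0.23 (adjusted p = 0.118 by limma) and 0.18 (adjusted p = 0.216 by limma) with shPcyt2-1, and PSMC3 was at 0.19 (adjusted p = 0.0701 by limma) with median-ratio scaling. Summed over the 6 genes, the level was 263 and 263 FPKM with shNT, 319 and 315 FPKM with shPcyt2-1, and 230.0 and 225 FPKM with shPcyt2-2. Libraries of one group were close to each other, and the 3 groups did not overlap. The letters TGACNNNGC, a core of the antioxidant response element through which NFE2L1 and its relatives bind, are found on either strand in 15 of 43 member genes, that is 34.9%, against 16.1% of all symbols, where a symbol counts if any of its promoter windows holds them. Of the ATPase genes that fell with shPcyt2-2, PSMC3 holds no match. In PSMC4 the match begins 27 bases after the RefSeq start, and in PSMC5 it lies in 1 of 2 windows, that of a RefSeq start 569 bases inside the gene, so neither is shown. With shPcyt2-1, 6 of the 14 tested members with a match and 14 of the 26 without one were called higher, beside 16.5% of all tested genes. With shPcyt2-2, 2 of the 14 and 2 of the 26 were called lower, beside 4.74% of all tested genes.

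PSMC3 (ENSG00000165916, GRCh38 chromosome 11, 47418769 to 47426473, minus strand) was at 68.9 and 72.1 FPKM with shNT, 86.4 and 84.3 FPKM with shPcyt2-1, and 55.7 and 56.3 FPKM with shPcyt2-2. The groups were separate, with shPcyt2-1 above and shPcyt2-2 below shNT. PSMC3 was called higher with shPcyt2-1, at 0.27 (standard error 0.06, limma adjusted p = 0.0117), and lower with shPcyt2-2, at -0.33 (standard error 0.06, limma adjusted p = 0.0127). The difference between hairpins was -0.60 (standard error 0.06, limma adjusted p = 0.000304). PSMC5 (ENSG00000087191, GRCh38 chromosome 17, 63827152 to 63832026, plus strand) was at 57.6 and 63.8 FPKM with shNT, 70.3 and 68.2 FPKM with shPcyt2-1, and 43.3 and 42.7 FPKM with shPcyt2-2. Here too shPcyt2-2 was lowest and shPcyt2-1 highest. PSMC5 fell with shPcyt2-2, at a log2 fold change of -0.49 (standard error 0.07, limma adjusted p = 0.00558), and was at 0.19 (adjusted p = 0.0701 by limma) with shPcyt2-1. The hairpins differed by -0.67 (standard error 0.07, limma adjusted p = 0.000333), the largest such difference among the called proteasome genes. PSMC4 was at 48.4 and 48.8 FPKM with shNT, 49.3 and 56.1 FPKM with shPcyt2-1, and 40.4 and 39.6 FPKM with shPcyt2-2. The shPcyt2-2 libraries lay below all others. PSMC4 fell with shPcyt2-2, at -0.27 (adjusted p = 0.0437 by limma), was at 0.11 (adjusted p = 0.281 by limma) with shPcyt2-1, and the difference was -0.39 (adjusted p = 0.00564 by limma). Its call against shNT was lost without each shNT and each shPcyt2-2 library in turn (log2 fold change -0.29 to -0.26). That call was also lost without an expression limit and without a mean-variance trend.

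PSMC2 was at 46.4 and 41.2 FPKM with shNT, 62.6 and 58.3 FPKM with shPcyt2-1, and 48.2 and 43.7 FPKM with shPcyt2-2. PSMC1 was at 19.1 and 20.4 FPKM with shNT, 25.04 and 24.2 FPKM with shPcyt2-1, and 16.3 and 18.8 FPKM with shPcyt2-2. The shPcyt2-1 libraries stood highest in both, while those of shPcyt2-2 overlapped shNT in PSMC2 and lay below it in PSMC1. PSMC2 rose by 0.46 (standard error 0.08, limma adjusted p = 0.00534) and PSMC1 by 0.31 (standard error 0.09, limma adjusted p = 0.0296) with shPcyt2-1. With shPcyt2-2 the values were 0.07 (adjusted p = 0.602 by limma) and -0.16 (adjusted p = 0.227 by limma), and the hairpins differed by -0.39 (adjusted p = 0.00862 by limma) and -0.47 (adjusted p = 0.0046 by limma). PSMC6 did not follow the other ATPases. It was at 22.3 and 16.7 FPKM with shNT, 25.8 and 24.4 FPKM with shPcyt2-1, and 26.1 and 23.4 FPKM with shPcyt2-2, with both hairpins above shNT, and passed no test (0.36 (adjusted p = 0.0528 by limma) with shPcyt2-1 and 0.34 (adjusted p = 0.0912 by limma) with shPcyt2-2). The differences between hairpins held in every fit with 1 library left out for PSMC1, PSMC3 and PSMC5. Without shPcyt2-2 replicate 1, 0 of the 6 ATPases were called lower than with shNT (0.98% of all tested genes were called in this fit), and without its replicate 2, 1 was (4.41%). The log2 fold changes in these fits were -0.32 and -0.34 for PSMC3, -0.29 and -0.26 for PSMC4, and -0.50 and -0.48 for PSMC5. With shPcyt2-1, 1 was higher without its replicate 1 and 1 without its replicate 2, and PSMC2 held in every such fit. Exons of NRDE2 cover 75.8% of the exon bases of PSMC1 and exons of FTSJ3 cover 19.5% of those of PSMC5, and PSMC4 shares its values with 1 other identifier, so these 3 genes are uncertain.

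**Figure D2:**
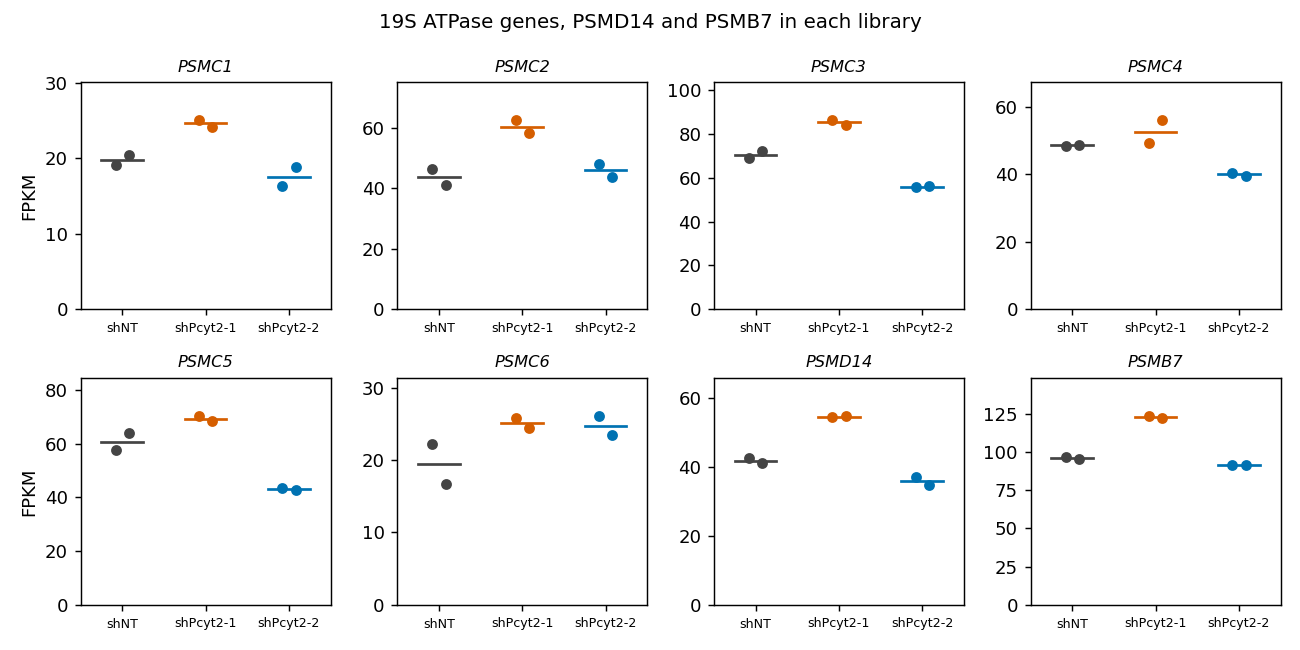
FPKM (linear axis from 0) of the 6 ATPase genes of the 19S base, the deubiquitinase PSMD14 and the core subunit PSMB7. Each point is a library and each line a group mean. In PSMC3, PSMC4, PSMC5 and PSMD14 the shPcyt2-2 points lie below shNT and the shPcyt2-1 points above it, and PSMC6 is above shNT with both hairpins.

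Of the 3 other subunits of the base, which carry ubiquitin receptors and scaffolds, 1 rose with shPcyt2-1 and 0 were called with shPcyt2-2 (median 0.29 and 0.044). Over all tested genes 16.5% were higher with shPcyt2-1 and 12.4% were called with shPcyt2-2. With median-ratio scaling 1 fell with shPcyt2-2 (median -0.010), beside 6.89% lower over all tested genes. With GC content and length regressed out 1 fell with shPcyt2-2 too, beside 6.76%, and the medians were 0.13 with shPcyt2-1 and 0.029 with shPcyt2-2. PSMD2, a scaffold that receives shuttle proteins, was at 84.2 and 85.5 FPKM with shNT, 103 and 105 FPKM with shPcyt2-1, and 88.2 and 86.8 FPKM with shPcyt2-2. Only shPcyt2-1 stood apart from the rest. PSMD2 rose by 0.29 (standard error 0.06, limma adjusted p = 0.00718) with shPcyt2-1 and was at 0.04 (adjusted p = 0.63 by limma) with shPcyt2-2. Its call was lost without either shPcyt2-1 library (limma adjusted p up to 0.0574). ADRM1, a ubiquitin receptor of the base whose symbol lies outside the rule, was at 152 and 174 FPKM with shNT, 167 and 180.4 FPKM with shPcyt2-1, and 109 and 115 FPKM with shPcyt2-2. The shPcyt2-2 libraries were the lowest, and those of shPcyt2-1 overlapped shNT. Exons of other genes cover 17.2% of the exon bases of ADRM1, so its level is uncertain. ADRM1 fell with shPcyt2-2, at -0.53 (standard error 0.08, limma adjusted p = 0.00581), and the hairpins differed by -0.62 (standard error 0.08, limma adjusted p = 0.000709). That difference held in every fit with 1 library left out, and the call against shNT was lost without shPcyt2-2 replicate 1 (limma adjusted p = 0.0759).

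In the 19S lid 4 of 8 genes rose with shPcyt2-1, 0 changed with shPcyt2-2, and 4 were lower with shPcyt2-2 than with shPcyt2-1 (median 0.19, 0.093 and -0.15). With median-ratio scaling 3 rose with shPcyt2-1, 1 fell with shPcyt2-2 (median 0.11 and 0.040), and 2 were lower in the direct comparison. With GC content and length regressed out 2 rose and 1 fell with shPcyt2-1, and 1 fell with shPcyt2-2 (median 0.14 and 0.026). Over all tested genes 6.89% and 6.76% were lower with shPcyt2-2 in these fits. With shPcyt2-1, 11.1% and 14.2% were higher, and 13.8% and 13.3% lower. In the direct comparison 13.1% were lower with median-ratio scaling. PSMD14, the deubiquitinase that cuts the chain from the substrate (ENSG00000115233, GRCh38 chromosome 2, 161308038 to 161411717, plus strand), was at 42.6 and 41.1 FPKM with shNT, 54.4 and 54.8 FPKM with shPcyt2-1, and 36.9 and 34.9 FPKM with shPcyt2-2. The groups did not overlap, with shPcyt2-1 highest and shPcyt2-2 lowest. PSMD14 rose by 0.38 (standard error 0.06, limma adjusted p = 0.00456) with shPcyt2-1 and was at -0.22 (adjusted p = 0.0589 by limma) with shPcyt2-2. The hairpins differed by -0.59 (standard error 0.06, limma adjusted p = 0.000459). PSMD11, a lid scaffold, was at 26.8 and 25.8 FPKM with shNT, 34.00 and 35.2 FPKM with shPcyt2-1, and 28.9 and 29.03 FPKM with shPcyt2-2. PSMD12, another lid scaffold, was at 12.1 and 10.9 FPKM with shNT, 14.7 and 15.7 FPKM with shPcyt2-1, and 14.7 and 13.6 FPKM with shPcyt2-2. Both had every knockdown library above shNT, with shPcyt2-1 highest in PSMD11 and the hairpins touching in PSMD12. PSMD11 rose by 0.38 (adjusted p = 0.00473 by limma) and PSMD12 by 0.38 (adjusted p = 0.0136 by limma) with shPcyt2-1, against 0.13 (adjusted p = 0.204 by limma) and 0.28 (adjusted p = 0.0626 by limma) with shPcyt2-2. The calls for PSMD14 and PSMD11 with shPcyt2-1 held in every fit with 1 library left out, but with GC content and length regressed out PSMD14 was at 0.16 (adjusted p = 0.0827 by limma) with shPcyt2-1. PSMD12 was not called without shNT replicate 2 or without either shPcyt2-1 library (limma adjusted p up to 0.0879). SEM1, a small lid subunit outside the rule, was at 136 and 125 FPKM with shNT, 127 and 119.5 FPKM with shPcyt2-1, and 131 and 120.5 FPKM with shPcyt2-2, with overlapping groups, and passed no test (-0.09 (adjusted p = 0.364 by limma) and -0.06 (adjusted p = 0.596 by limma)).

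Summed over all its members, the alpha ring was at 707 and 633 FPKM with shNT, 723 and 703 FPKM with shPcyt2-1, and 729 and 682 FPKM with shPcyt2-2. These groups overlapped. The beta ring without PSMB3 was at 606 and 607 FPKM with shNT, 712 and 698 FPKM with shPcyt2-1, and 611 and 615 FPKM with shPcyt2-2. Here the shPcyt2-1 libraries stood above the others, and shPcyt2-2 lay next to shNT. The lid was at 423 and 420.0 FPKM with shNT, 478 and 475 FPKM with shPcyt2-1, and 424 and 424 FPKM with shPcyt2-2, with the same order. These sums describe the levels and carry no test. With median-ratio scaling the beta ring with shPcyt2-2, PSMB3 included, moved from 1.03 to 0.992 times shNT and the lid from 1.01 to 0.969 times, while the ATPases stayed below (0.865 and 0.833 times) with shPcyt2-2 and above with shPcyt2-1 (1.21 and 1.14 times).

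**Figure D3:**
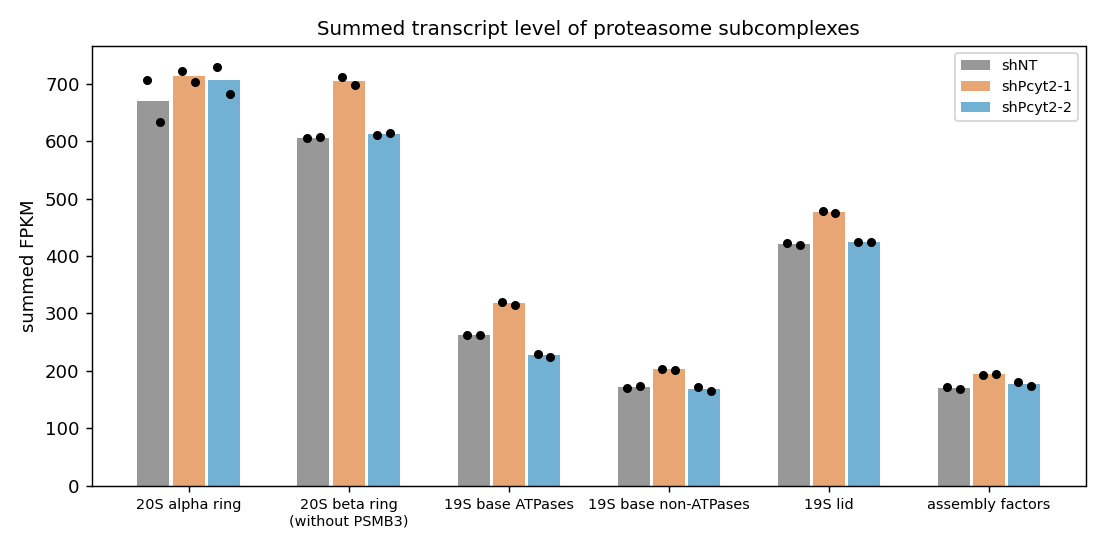
Summed FPKM of the members of 6 subcomplexes, with bars for the mean of 2 libraries per group and points for the libraries (axis from 0). The interferon-inducible group and the other activators are not drawn. The shPcyt2-1 bars are the highest in all 6, although the alpha ring groups overlap and with median-ratio scaling shPcyt2-2 is highest there (701 against 696), and only among the ATPases do both shPcyt2-2 libraries lie well below both shNT libraries.

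Assembly factors, which build the rings and leave the finished particle, had 4 of 7 genes higher with shPcyt2-1, and 2 higher and 2 lower with shPcyt2-2 (median 0.30 and -0.0031). Over all tested genes 16.5% were higher with shPcyt2-1, and 7.69% were higher and 4.74% lower with shPcyt2-2. With median-ratio scaling 2 were higher and 1 lower with shPcyt2-1 (median 0.22), and 1 higher and 2 lower with shPcyt2-2. The shares over all tested genes were then 11.1% and 13.8%, and 5.98% and 6.89%. With GC content and length regressed out 2 were higher and 1 lower with shPcyt2-1 (median 0.125), and 2 higher and 2 lower with shPcyt2-2. The shares over all tested genes were here 14.2% and 13.3%, and 7.54% and 6.76%. PSMD10, a chaperone of the ATPase ring, was at 31.96 and 28.1 FPKM with shNT, 39.4 and 38.8 FPKM with shPcyt2-1, and 40.3 and 38.1 FPKM with shPcyt2-2. All knockdown libraries exceeded shNT and the hairpins overlapped. PSMD10 rose with both hairpins, by 0.37 (standard error 0.08, limma adjusted p = 0.00996) and 0.38 (standard error 0.08, limma adjusted p = 0.0189). PSMG2, a chaperone of the alpha ring, was at 39.2 and 37.7 FPKM with shNT, 47.03 and 47.8 FPKM with shPcyt2-1, and 48.1 and 44.6 FPKM with shPcyt2-2. Again every knockdown library exceeded shNT. PSMG2 rose by 0.30 (standard error 0.07, limma adjusted p = 0.0134) and 0.26 (standard error 0.07, limma adjusted p = 0.0355). Exons of other genes cover 16.7% of the exon bases of PSMG2, so its level is uncertain. Its partner PSMG1 was at 26.00 and 21.6 FPKM with shNT, 28.1 and 31.5 FPKM with shPcyt2-1, and 23.3 and 23.95 FPKM with shPcyt2-2. The shPcyt2-1 libraries were highest, and the others overlapped. PSMG1 rose by 0.32 (adjusted p = 0.0404 by limma) with shPcyt2-1 and was at -0.00 (adjusted p = 0.987 by limma) with shPcyt2-2. The call with shPcyt2-1 was lost without each library in turn other than shNT replicate 1, and without shNT replicate 2 the value was 0.19. That call was also lost with a replicate block, with median-ratio scaling and with GC content and length regressed out. The hairpins differed by -0.32 (adjusted p = 0.038 by limma), a call that was lost with median-ratio scaling, with GC content and length regressed out and without 3 of the libraries in turn.

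PSMG3 and PSMG4 form a second pair of alpha ring chaperones. PSMG3 was at 39.6 and 44.01 FPKM with shNT, 41.6 and 41.5 FPKM with shPcyt2-1, and 34.3 and 34.01 FPKM with shPcyt2-2. PSMG4 was at 18.4 and 20.9 FPKM with shNT, 16.8 and 17.1 FPKM with shPcyt2-1, and 15.4 and 14.7 FPKM with shPcyt2-2. Both shPcyt2-2 libraries were below all others in each gene, and the shPcyt2-1 libraries lay within shNT for PSMG3 and below it for PSMG4. With shPcyt2-2, PSMG3 changed by -0.28 (adjusted p = 0.0348 by limma) and PSMG4 by -0.36 (adjusted p = 0.0257 by limma). With shPcyt2-1 the values were -0.01 (adjusted p = 0.961 by limma) and -0.20 (adjusted p = 0.105 by limma). Exons of other genes cover 15.0% of the exon bases of PSMG4, so its level is uncertain. When either shPcyt2-1 library was left out, calls with this hairpin fell over all tested genes, as given above. Among the 7, every call with shPcyt2-1 was lost without its replicate 1, and every call but that of PSMD10 without its replicate 2. With shPcyt2-2, 0 were called without shNT replicate 2 or without either of its own libraries. The values moved less than the calls. Without replicate 1 and without replicate 2 of shPcyt2-2, PSMG3 was at -0.29 and -0.28, and PSMD10 at 0.34 and 0.42, and fewer of all tested genes were called in these fits (0.98% and 4.41%). POMP, the maturation factor of the core, which lies outside the rule, was at 49.8 and 46.5 FPKM with shNT, 57.8 and 57.1 FPKM with shPcyt2-1, and 59.9 and 58.00 FPKM with shPcyt2-2. All knockdown libraries exceeded shNT. POMP rose by 0.25 (adjusted p = 0.0211 by limma) and 0.29 (adjusted p = 0.0238 by limma), and with GC content and length regressed out these values were 0.0257 and -0.0108. Without shNT replicate 2, without either library of the hairpin compared, or with median-ratio scaling, neither call of POMP was made.

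Of 48 pathway genes outside the rule, 43 were tested. With shPcyt2-1 8 rose and 2 fell, that is 23.3% beside 26.7% of all tested genes, and with shPcyt2-2 6 rose and 3 fell, that is 20.9% beside 12.4%. With median-ratio scaling the split was 3 higher and 3 lower with shPcyt2-1 and 4 higher and 5 lower with shPcyt2-2, and with GC content and length regressed out it was 6 and 3, and 5 and 6. NFE2L1, the transcription factor of the constitutive genes, was at 47.2 and 47.02 FPKM with shNT, 53.96 and 55.9 FPKM with shPcyt2-1, and 46.6 and 46.6 FPKM with shPcyt2-2. Both shPcyt2-1 libraries were above all others. NFE2L1 rose by 0.22 (adjusted p = 0.029 by limma) with shPcyt2-1, was at -0.02 (adjusted p = 0.888 by limma) with shPcyt2-2, and the hairpins differed by -0.23 (adjusted p = 0.0203 by limma), a call that was lost without any 1 of the 4 knockdown libraries (limma adjusted p up to 0.164) and with median-ratio scaling. SEL1L, an adaptor of the ER ubiquitin ligase that acts on NFE2L1 protein, was at 10.5 and 9.35 FPKM with shNT, 16.1 and 15.3 FPKM with shPcyt2-1, and 16.4 and 13.7 FPKM with shPcyt2-2. Every knockdown library was above shNT. SEL1L rose with both hairpins, by 0.62 (standard error 0.10, limma adjusted p = 0.00405) and 0.55 (standard error 0.10, limma adjusted p = 0.0133), and the call with shPcyt2-2 was lost without shNT replicate 2 or shPcyt2-2 replicate 1 (limma adjusted p up to 0.0999). BACH1, a repressor at the same promoter element, was at 5.08 and 4.58 FPKM with shNT, 6.91 and 6.19 FPKM with shPcyt2-1, and 5.84 and 5.05 FPKM with shPcyt2-2. MAFF was at 26.9 and 27.6 FPKM with shNT, 19.8 and 23.1 FPKM with shPcyt2-1, and 23.1 and 26.8 FPKM with shPcyt2-2. MAFG, like MAFF a small partner protein of these factors, was at 21.9 and 23.6 FPKM with shNT, 18.7 and 19.2 FPKM with shPcyt2-1, and 19.5 and 21.4 FPKM with shPcyt2-2. The shPcyt2-1 libraries were the highest of all for BACH1 and below both shNT libraries for MAFF and MAFG. With shPcyt2-1, BACH1 rose by 0.37 (adjusted p = 0.0321 by limma), and MAFF and MAFG changed by -0.34 (adjusted p = 0.034 by limma) and -0.25 (adjusted p = 0.0442 by limma). Without shNT replicate 2 or shPcyt2-1 replicate 1, none of NFE2L1, BACH1, MAFF and MAFG was called, with limma adjusted p up to 0.241. NFE2L1 was not called with median-ratio scaling, nor BACH1, MAFF and MAFG with GC content and length regressed out.

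Among the partners, PAAF1, a chaperone of the base, was at 5.77 and 6.17 FPKM with shNT, 8.20 and 8.10 FPKM with shPcyt2-1, and 8.26 and 6.72 FPKM with shPcyt2-2. All knockdown libraries exceeded shNT, and only shPcyt2-1 passed the test, at 0.39 (adjusted p = 0.0257 by limma) against 0.28 (adjusted p = 0.11 by limma). UBE3C, a ubiquitin ligase bound to the proteasome, was at 26.2 and 25.3 FPKM with shNT, 27.96 and 28.5 FPKM with shPcyt2-1, and 37.6 and 33.1 FPKM with shPcyt2-2. The shPcyt2-2 libraries were the highest. UBE3C rose by 0.44 (standard error 0.08, limma adjusted p = 0.0112) with shPcyt2-2, and the hairpins differed by 0.31 (adjusted p = 0.0173 by limma). This difference lost its call without replicate 1 or 2 of shPcyt2-1 (0.30 and 0.32) and without shPcyt2-2 replicate 1 (0.22). PITHD1 was at 20.8 and 20.9 FPKM with shNT, 22.9 and 24.4 FPKM with shPcyt2-1, and 17.4 and 16.2 FPKM with shPcyt2-2. Its shPcyt2-2 libraries were the lowest. PITHD1 fell with shPcyt2-2, at -0.30 (adjusted p = 0.0341 by limma), and the hairpins differed by -0.47 (adjusted p = 0.00239 by limma). Each of these calls against shNT was lost without shNT replicate 2, and the difference between hairpins of PITHD1 held in every fit with 1 library left out.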

How the data were processed

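The 6 SW480 libraries were grouped by the treatment in the labels. The authors deposited 1 table per library of values above 0 by Ensembl gene, and these were taken as FPKM because they are not whole numbers and sum to similar totals. TPM over part of the genes cannot be told apart. Aligner, quantification tool and annotation are not given in the sources used here, the submitters' processing notes list GRCh38 beside the mouse builds GRCm38 and mm10, and the labels name both an NEBNext Ultra and a SMARTer kit without saying which library each made. The study's methods name a count-based package, which could not be used on FPKM.

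The tables hold 21539 identifiers. Rows repeated within a library (115 identifiers) were summed and 1045 groups of identifiers with the same values were joined to give 19655 genes, named and placed by GENCODE 29 (GRCh38). The 12756 genes whose mean reached 0.5 FPKM were transformed to log2(FPKM + 1) and fitted by limma 3.58.1 (R 4.3.3) with variances following a trend on the mean, in 1 fit with 3 groups, or with the 4 knockdown libraries as 1 group for the pooled comparison. P-values were two-sided and adjusted by Benjamini-Hochberg over all tested genes, and genes were called at an adjusted p under 0.05. A fold change on this scale understates the change of low genes. The fits were tested on simulated data, and the results of that are not given here.

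The proteasome genes and lists were chosen with earlier results of these data known. Named genes are PCYT2, PSMB3, the catalytic subunits, PSME1 and PSME2, and in each subcomplex up to 3 genes with the largest called change with each hairpin whose 2 libraries are both above or both below the shNT libraries. Pathway genes were named in the same way, up to 3 in each direction, with NFE2L1, POMP, ADRM1 and SEM1 always named. 1 pathway gene that the rule names is not reported here. Alternatives covered the pseudocount (0.1), the expression limit (none or 1), a replicate block, leaving out each library, median-ratio scaling, a trend on GC content and length, the variance model, and sums without PSMB3. Promoters came from RefSeq (GRCh38.p14), and 43 of the 49 genes had one. No intervals for counting error are given, since the depth is unknown. Figures were drawn with matplotlib 3.10.9.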

Additional observations from a re-analysis of the deposited data

Results flagged for a closer look

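The effect of the hairpins differed for 19 of the 46 tested proteasome genes in the direct limma comparison (adjusted p under 0.05), 1 higher and 18 lower with shPcyt2-2 than with shPcyt2-1, beside 27.1% of all tested genes called in either direction. Given as log2 differences, shPcyt2-2 minus shPcyt2-1, the 20S core genes were PSMA6 at -0.29, PSMA7 at 0.19, PSMB2 at -0.24, PSMB4 at -0.28 and PSMB7 at -0.42. The 19S ATPases were PSMC1 at -0.47, PSMC2 at -0.39, PSMC3 at -0.60, PSMC4 at -0.39 and PSMC5 at -0.67. The other 19S subunits were PSMD2 at -0.25, PSMD3 at -0.21, PSMD4 at -0.34, PSMD8 at -0.19, PSMD11 at -0.25 and PSMD14 at -0.59. The activator PSME3 was at -0.33, and the assembly factors PSMG1 and PSMG3 were at -0.32 and -0.28. PSMD3, PSMD4 and PSMD8 are named only because of this difference. No library stood apart among the 4 knockdown libraries of any of the 46 genes by the Dixon criterion. Chance meets this criterion in about 1 of 20 groups only where the 4 libraries are of one kind. These 4 come from 2 hairpins, and where the hairpins differ a library can hardly be flagged. The shNT libraries, such as those of PSMB3 at 0.113 and 19.97 FPKM, were not examined, so outliers are not excluded.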

How the results depend on the processing

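Without an expression limit, 15 proteasome genes were called with shPcyt2-1 (23 with the limit) and 0 with shPcyt2-2 (7 with it), beside 9.38% and 0.631% of all 19655 genes, and 23 of 48 proteasome genes had an unadjusted limma p under 0.05 with shPcyt2-2, beside 21.9% of all genes. For shPcyt2-2 the count was 11 with GC content and length regressed out (14.3% of all tested genes) and 4 without a mean-variance trend (8.05%). With a library left out, the counts ranged from 9 to 23 for shPcyt2-1, from 0 to 16 for shPcyt2-2 and from 8 to 21 between the hairpins. The mean of both hairpins gave 17 calls where the pooled group gave 0. The differences between the 2 libraries of a group correlated at 0.0027 to 0.19 from group to group. The labels do not say whether libraries with the same replicate number share a culture or a batch. With the replicate number as a block, the counts were 24 for shPcyt2-1 (30.4% of all tested genes), 14 for shPcyt2-2 (15.9%), 20 between the hairpins (30.3%) and 0 for the pooled group (0%). PSMB3 with shPcyt2-2 ranged from -0.028 without shNT replicate 1 to 4.21 without shNT replicate 2, and POMP with shPcyt2-2 turned to -0.011 with GC content and length regressed out. With median-ratio scaling, summed levels with shPcyt2-1 were 1.006 times shNT for the alpha ring and 1.15 for the beta ring, PSMB3 included. They were 1.14 for the ATPases, 1.12 for the other base subunits and 1.07 for the lid. With shPcyt2-2 they were 1.014, 0.992, 0.833, 0.942 and 0.969 times, in the same order. Without this scaling, the beta ring with shPcyt2-1 was 1.22 times shNT with PSMB3 and 1.16 without it. Of 63 calls of named genes, 17 were kept under every alternative. The cause of these changes was not tested. The number of reads is unknown, and 2 libraries per group limit the precision of every value.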

Other observations

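Some genes were listed under more than 1 identifier with identical values, and their libraries lay further apart. Of 185 such genes with a copy and a mean of at least 10 FPKM, 6 (3.24%), PSMB3 among them, had libraries of a group more than 2-fold apart on the log2(FPKM + 1) scale, against 12 of 5084 genes (0.236%) with a single identifier. The median absolute log2 difference between libraries of a group was 0.12 with a copy and 0.078 without one. This comparison was chosen after the values of PSMB3 were seen and carries no test. The ratio of PSME1 to PSME2, both with such a copy, was 2.18 and 2.19 with shNT, 1.33 and 1.25 with shPcyt2-1, and 0.922 and 2.06 with shPcyt2-2.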
